A study of Mus musculus with 4 samples.

Results

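Ly6a, Ly6c1, Ly6c2 and Ly6e are neighbouring members of the Ly6 family, and they are described here across cultured cells of 2 mouse fat depots. They are 4 of the 32285 genes counted. They were picked out by symbol and were chosen on their levels in these same libraries, so those levels and the ratios between libraries are given as a description, with no test. Single-cell RNA sequencing (10x Genomics, 3′ chemistry) had been applied to 4 cultures, 1 library each. The first pair, iWAT_DFAT and eWAT_DFAT, are de-differentiated fat (DFAT) cells grown by ceiling culture from floating adipocytes of inguinal (iWAT) and epididymal (eWAT) white adipose tissue. The second pair, iWAT_ASPC and eWAT_ASPC, were grown from the stromal vascular cells of those depots, which the labels call SVF cells and the study adipose stem and progenitor cells (ASPCs). Per the study's methods the donors were male C57BL/6J mice on a chow diet, shared by all groups, and live cells were sorted by 7-AAD; mouse age and the number of animals pooled are not given in the sources used here. With 1 library per condition, intervals cover counting error only and no difference between conditions could be tested.

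Ly6 proteins are small, disulfide-rich proteins that mostly sit on the cell surface through a glycosylphosphatidylinositol (GPI) anchor. The product of Ly6a is Sca-1, a surface antigen widely used to sort stem and progenitor cells, fat progenitors included. Ly6c1 and Ly6c2 encode the Ly6C antigens, with Ly6c1 known from endothelium and Ly6c2 from monocytes. Ly6e encodes a broadly expressed member known for its part in viral entry and restriction. Several Ly6 genes are interferon-inducible, so interferon genes are given beside them.

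Cells were barcodes with 5000 to 75000 UMIs (unique molecular identifiers, 1 per captured RNA molecule), 200 to 7500 genes and under 10% mitochondrial UMIs. This left 7629 cells in iWAT_DFAT, 6464 in eWAT_DFAT, 7424 in iWAT_ASPC and 6745 in eWAT_ASPC, with medians of 22111 to 27617 UMIs per cell. Of 28165 distinct cell barcodes, 97 (0.344%) occurred in more than 1 library. ASPC-like clusters held 87.3% to 98.4% of the cells of each library. That name needed only 3 of 11 progenitor markers with a UMI in 50% or more of a cluster's cells, where no other class fitted. These shares therefore do not check the labels of depot or culture. The 11 ASPC markers summed to 2630 counts per 1000000 UMIs (CPM) in eWAT_DFAT, against 7598 to 8294 CPM in the other libraries. The 9 adipocyte markers summed to 2246 CPM in eWAT_DFAT and to 83.4 to 359 CPM elsewhere. The file header of iWAT_ASPC names another version of the counting software than the other headers. Genes that span 100 kb or more took 9.42% of its UMIs, close to the 9.22% of eWAT_DFAT and the 9.18% of eWAT_ASPC, while iWAT_DFAT stood apart with 11.55%. The 4 Ly6 genes span 3.16 to 4.86 kb.

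The 4 genes lie within 157 kb of chromosome 15 (GENCODE, GRCm38). Ly6e occupies chr15:74955051-74959905 on the plus strand, and Ly6a chr15:74994877-74998031 on the minus strand. Ly6c1 (chr15:75044018-75048830) and Ly6c2 (chr15:75108158-75111970) follow, also on the minus strand. Of the 31 counted genes from Jrk to Gpihbp1 on both sides of them, 4 reached 5 CPM in any library, namely Ly6a, Ly6c1, Ly6e and Lynx1. The 3 counted genes between the members stayed at or below 0.316 CPM.

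Ly6c1 and Ly6c2 are the closest pair, and their start regions are printed because the libraries held one transcript and almost none of the other. RefSeq lists 2 overlapping promoter windows for each gene, and the first listed of each is shown, which is also the pair that matched best over all alignment columns. These windows (GRCm38.p6, minus strand, written 5′ to 3′) cover chr15:75048788-75049087 for Ly6c1 and chr15:75111922-75112221 for Ly6c2. Capitals mark the stretches of 12 or more bases that both windows hold.
Ly6c1: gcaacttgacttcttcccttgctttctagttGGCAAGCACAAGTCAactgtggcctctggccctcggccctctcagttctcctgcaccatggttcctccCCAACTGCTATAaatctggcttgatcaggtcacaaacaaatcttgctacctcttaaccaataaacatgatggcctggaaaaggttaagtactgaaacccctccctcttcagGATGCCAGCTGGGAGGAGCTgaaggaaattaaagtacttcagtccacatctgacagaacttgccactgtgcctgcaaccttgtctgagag
Ly6c2: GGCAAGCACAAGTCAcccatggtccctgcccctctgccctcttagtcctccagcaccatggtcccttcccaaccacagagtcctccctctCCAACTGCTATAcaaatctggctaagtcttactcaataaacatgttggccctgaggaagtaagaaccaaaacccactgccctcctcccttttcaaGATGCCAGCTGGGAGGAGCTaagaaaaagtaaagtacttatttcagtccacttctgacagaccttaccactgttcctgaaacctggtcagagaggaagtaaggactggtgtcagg
Both windows share 3 such stretches, 47 bases in all, the longest of 20 bases. An alignment over the whole windows matched at 62.3% of its columns, and the other 3 pairings of windows matched at 38.2% to 50.5%. Over aligned bases alone the shown pair matched at 78.2% and the others at 63.3% to 88.4%. None of the 4 windows held the interferon-stimulated response element (GAAA, any 2 bases, GAAA) or the gamma-activated sequence TTCNNNGAA on either strand. Among all 32851 promoter windows of the table, 3.44% held the first motif and 8.30% the second. The main transcripts of Ly6c1 and Ly6c2 matched at 95.02% of alignment columns, and 29.9% of the 50-base words in the last 300 bases of each occurred in the other. Reads that fall wholly within shared stretches could come from either gene, so both levels are uncertain, and how many reads this concerns was not tested. The last 300 bases of Ly6a and Ly6e held no 50-base word found in another gene.

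Ly6a was highest in iWAT DFAT cells and lowest in eWAT DFAT cells. Its level was 821 CPM (95% Poisson interval 816 to 825) in iWAT_DFAT and 38.6 CPM (37.7 to 39.5) in eWAT_DFAT. The ASPC libraries lay between these, with 329 CPM (326 to 331) for iWAT and 157 CPM (155 to 158) for eWAT. By level, Ly6a ranked 174 among the 23693 genes detected in iWAT_DFAT and 3892 among 24235 in eWAT_DFAT. From highest to lowest, the order was iWAT_DFAT, iWAT_ASPC, eWAT_ASPC and eWAT_DFAT.

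Ly6c1 had the same order of libraries. It was at 94.5 CPM (93.1 to 95.9) in iWAT_DFAT, 26.1 CPM (25.4 to 26.8) in iWAT_ASPC and 8.77 CPM (8.36 to 9.20) in eWAT_ASPC. In eWAT_DFAT it was at 1.75 CPM (1.56 to 1.95), a total of 324 UMIs in 6464 cells. This low level depended on how cells were pooled, with 2.92 CPM as a mean over cells, each weighing the same, and 1.09 CPM in ASPC-like cells alone.

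Ly6e varied least of the 3 detected genes. It was at 189 CPM (187 to 191) in iWAT_DFAT, 91.3 CPM (89.95 to 92.6) in iWAT_ASPC, 89.8 CPM (88.4 to 91.2) in eWAT_DFAT and 74.9 CPM (73.7 to 76.2) in eWAT_ASPC. The intervals of iWAT_ASPC and eWAT_DFAT overlapped, so these neighbours were not separable even by counting error.

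Ly6c2 was at the limit of detection. It had 2 UMIs in iWAT_DFAT, none in eWAT_DFAT, 3 in iWAT_ASPC and 2 in eWAT_ASPC. With 0 UMIs the eWAT_DFAT total allows up to 0.0162 CPM (3 counts), and the upper end of its exact 95% Poisson interval is 0.0199 CPM. Both UMIs of eWAT_ASPC lay in its 25 immune-like cells. No ratio is given for Ly6c2.

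**Figure D1:**
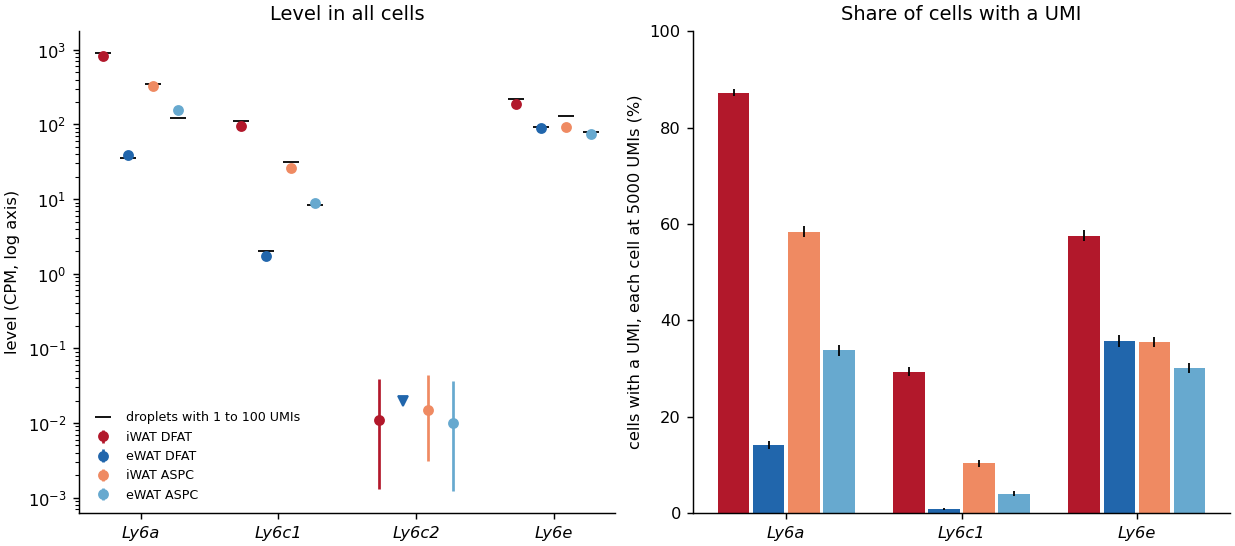
Left, level of each gene in CPM (log axis) by library, with 95% Poisson intervals; the triangle is the upper end of the interval of Ly6c2 in eWAT_DFAT, which had 0 UMIs, and the black dashes are droplets with 1 to 100 UMIs. Right, share of cells with at least 1 UMI after each cell was thinned to 5000 UMIs, with exact 95% binomial intervals; Ly6a runs from 87.3% in iWAT_DFAT to 14.1% in eWAT_DFAT.

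Empty droplets carried the same genes at like levels. In droplets with 1 to 100 UMIs, Ly6a was at 902 CPM in iWAT_DFAT, 348 in iWAT_ASPC, 121 in eWAT_ASPC and 35.4 in eWAT_DFAT. Over Ly6a, Ly6c1 and Ly6e, the level in these droplets was 0.771 to 1.43 times that in cells.

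The shares of cells with a UMI followed the levels once depth was made equal. In cells thinned to 5000 UMIs, Ly6a had a UMI in 87.3% of iWAT_DFAT cells (exact binomial 86.5% to 88.0%) and in 58.4% of iWAT_ASPC cells (57.2% to 59.5%). The eWAT shares were 33.7% (32.6% to 34.9%) in ASPCs and 14.1% (13.3% to 14.997%) in DFAT cells. At full depth these shares were 96.8%, 83.8%, 59.6% and 35.9%. Ly6c1 had a UMI in 29.4% of thinned iWAT_DFAT cells, 10.3% of iWAT_ASPC, 4.00% of eWAT_ASPC and 0.866% of eWAT_DFAT (58.3%, 32.8%, 15.2% and 3.20% at full depth). Ly6e had one in 57.5% of thinned iWAT_DFAT cells and in 30.1% to 35.7% of the cells of the other libraries (95.3%, and 77.6% to 83.4%, at full depth).

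The gap in Ly6a ran through the bulk of the cells in iWAT_DFAT, while in the eWAT libraries few cells held most of it. The median iWAT_DFAT cell had 17 Ly6a UMIs at full depth and its 10th percentile had 3. The median was 5 in iWAT_ASPC, 1 in eWAT_ASPC and 0 in eWAT_DFAT. After thinning, the 10% of the cells richest in Ly6a held 28.5% of its UMIs in iWAT_DFAT, 42.8% in iWAT_ASPC, 61.9% in eWAT_ASPC and 81.8% in eWAT_DFAT. Sampling alone concentrates sparse counts, so these shares also follow the level. For Ly6e the top 10% of cells held 35.5% to 48.7%.

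**Figure D2:**
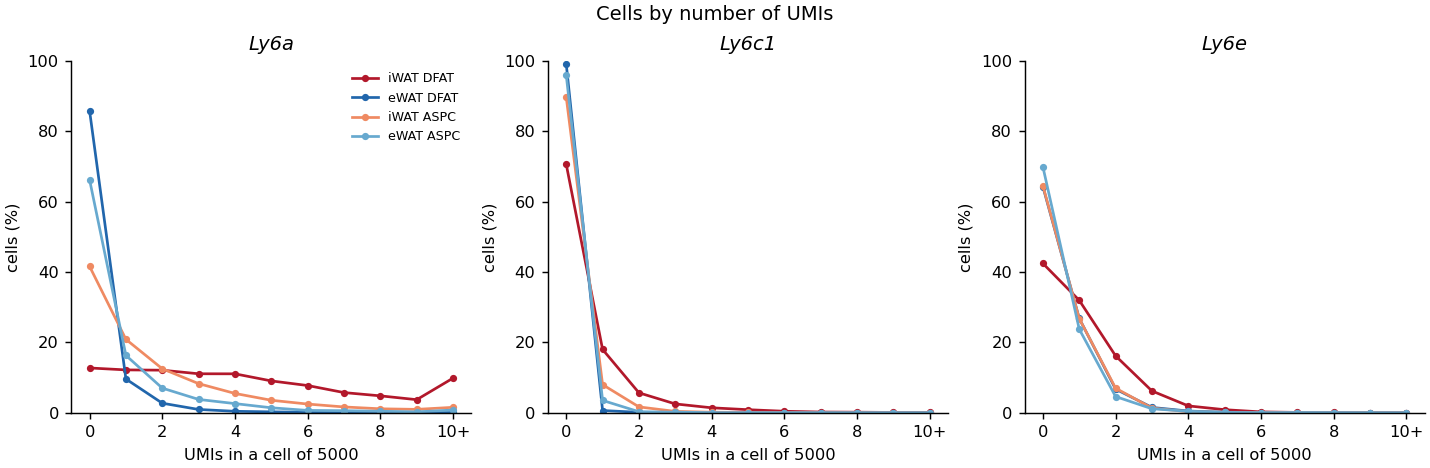
Percent of cells (vertical axes) with 0, 1, 2 and up to 10 or more UMIs of Ly6a, Ly6c1 and Ly6e (horizontal axes) after thinning to 5000 UMIs, 1 line per library. The iWAT_DFAT line of Ly6a stays between 11.1% and 12.7% from 0 to 4 UMIs, whereas the eWAT_DFAT line starts at 85.9% of cells with 0.

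The comparison of depots asks how DFAT cells and ASPCs from iWAT differ from those of eWAT. In DFAT cells, 3 of the 4 genes were 2-fold or more higher in iWAT. The fourth, Ly6c2, had too few UMIs to be compared, here and in the comparisons below. The background was 8.29% of the 10384 genes at 5 CPM or more in the higher library, and 3.95% were as much higher in eWAT. Ly6a was 21.3-fold higher (log2 ratio 4.41, interval 4.38 to 4.45). Of the genes compared, 25 had a higher ratio. Ly6c1 was 54.1-fold higher (log2 5.76, 5.60 to 5.92), with 12 genes above it. Ly6e was 2.11-fold higher (log2 1.08, 1.05 to 1.10), and it fell just under 2-fold (log2 0.98) when ratios were centred on the median gene. The Ly6c1 ratio rose to log2 6.44 in ASPC-like cells alone, since 38.3% of its eWAT_DFAT UMIs came from 143 endothelial-like cells.

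Between the ASPC libraries the depots lay closer. Ly6a and Ly6c1, 2 of the 4 genes, were 2-fold or more higher in iWAT, against 2.94% of 10135 genes (3.94% in the other direction). Ly6a was 2.10-fold higher (log2 1.07, 1.05 to 1.09) and Ly6c1 2.97-fold (log2 1.57, 1.49 to 1.65). Ly6e differed by log2 0.28 (0.25 to 0.32).

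The comparison of cell types asks how DFAT cells differ from the ASPCs of their own depot. In iWAT, 3 of the 4 genes were 2-fold or more higher in DFAT cells, against 9.91% of 10426 genes (5.18% were lower by as much). Ly6a was 2.49-fold higher (log2 1.32, 1.31 to 1.33), Ly6c1 3.62-fold (log2 1.86, 1.81 to 1.90) and Ly6e 2.07-fold (log2 1.05, 1.03 to 1.08). For Ly6e the centred value was again just under 2-fold (log2 0.96). Long genes were also higher in iWAT_DFAT than in iWAT_ASPC (median log2 0.31, against -0.07 for genes under 10 kb), and nearly as much higher than in eWAT_DFAT (0.29, against -0.04). The part of counting and library differences in the Ly6 ratios was not tested.

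In eWAT the direction was the other one for Ly6a and Ly6c1. Both were 2-fold or more higher in ASPCs, against 6.67% of 10298 genes. None of the members compared was as much higher in DFAT cells (6.44% of genes). Ly6a was 4.06-fold higher in eWAT_ASPC than in eWAT_DFAT (log2 -2.02, -2.06 to -1.98) and Ly6c1 5.03-fold (log2 -2.33, -2.50 to -2.16). Ly6e was within 2-fold, slightly higher in DFAT cells (log2 0.26, 0.23 to 0.29). Among ASPC-like cells alone the Ly6c1 value was log2 -3.09, and it was -1.70 when each cell weighed the same. The difference in direction between the depots was not tested, and neither was the part of the low ASPC marker level of eWAT_DFAT in it. The 4 comparisons share libraries and are not independent of each other.

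**Figure D3:**
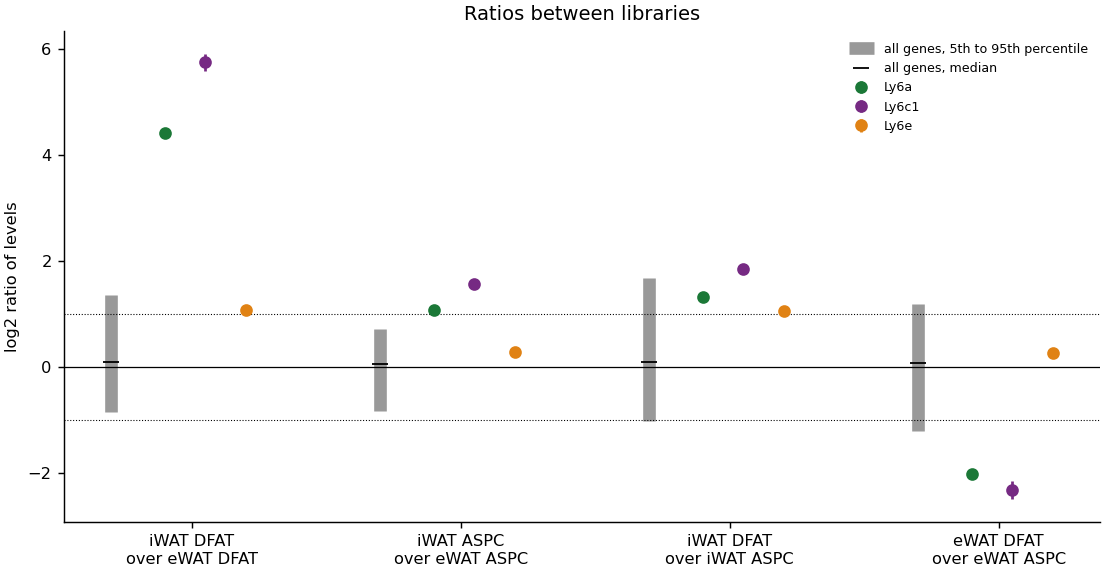
Log2 ratio of levels in the 4 comparisons named under the axis, for Ly6a, Ly6c1 and Ly6e with 95% counting intervals; grey bars span the 5th to 95th percentile of all genes compared, dashes mark their median and dotted lines 2-fold. Ly6a and Ly6c1 lie far above the bar between the DFAT libraries (4.41 and 5.76) and below it for eWAT_DFAT over eWAT_ASPC (-2.02 and -2.33).

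By cell class, most of these transcripts came from ASPC-like cells, and endothelial-like cells were richest in Ly6e. ASPC-like clusters held 93.6% to 99.1% of the Ly6a UMIs of each library, and 87.3% to 98.4% of its cells. These shares of UMIs thus mostly follow the number of such cells. For Ly6c1 the share of UMIs ran from 59.3% in eWAT_DFAT to 99.2% in iWAT_ASPC. For Ly6e it ran from 86.6% in eWAT_ASPC to 98.8% in iWAT_DFAT. Within ASPC-like cells, Ly6a was at 825 CPM in iWAT_DFAT, 335 in iWAT_ASPC, 163 in eWAT_ASPC and 38.1 in eWAT_DFAT, the order seen over all cells. Endothelial-like cells had Ly6e at 153 to 357 CPM, above the 70.9 to 190 CPM of ASPC-like cells of the same libraries. In eWAT_DFAT they also had 56.0 CPM of Ly6c1 (46.5 to 66.7), against 1.09 CPM (0.942 to 1.26) in ASPC-like cells. In the ASPC libraries Ly6c1 was not higher in them beyond counting error. It was at 13.95 CPM (7.81 to 23.02) in iWAT_ASPC, below the 26.6 CPM of ASPC-like cells, and at 11.1 CPM (7.28 to 16.3) in eWAT_ASPC, where ASPC-like cells had 9.30 CPM. The Ly6a level was higher in endothelial-like than in ASPC-like cells in the eWAT libraries (165 CPM in eWAT_DFAT and 337 CPM in eWAT_ASPC), and lower in the iWAT libraries (427 CPM in iWAT_DFAT and 167 CPM in iWAT_ASPC). In eWAT_ASPC the share of thinned cells with a Ly6a UMI was nevertheless close in both classes, 35.8% (27.7% to 44.6%) of endothelial-like and 36.3% (35.1% to 37.6%) of ASPC-like cells. The 8 endothelial markers summed to 23.4 to 97.8 CPM per library. The iWAT_DFAT library held only 16 endothelial-like cells, with Ly6c1 at 153 CPM (113 to 203).

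The remaining named classes were lower in Ly6a than the ASPC-like cells of their library. Mesothelial-like cells, found in the eWAT libraries, had 41.8 CPM of Ly6a in eWAT_ASPC and 4.05 CPM in eWAT_DFAT, yet 96.3 and 70.9 CPM of Ly6e. The 184 pericyte-like cells of eWAT_DFAT had 16.4 CPM of Ly6a and 135 CPM of Ly6e. Neural-like cells of iWAT_ASPC had 75.1 CPM of Ly6a and 28.6 CPM of Ly6e, the lowest Ly6e of that library. Adipocyte-like cells were found in the DFAT libraries and differed between the depots in the same direction as ASPC-like cells, with Ly6a at 609 CPM (577 to 642) in iWAT_DFAT and 15.02 CPM (9.90 to 21.8) in eWAT_DFAT. At Leiden resolution 1 no cluster of iWAT_DFAT met the rule for adipocyte-like cells, so that class there depends on the clustering.

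The classes with the lowest shares bear on how much free RNA could add. In eWAT_DFAT, Ly6c1 had a UMI in 0.503% of thinned ASPC-like cells (median 28146 UMIs before thinning) and in 0.543% of pericyte-like cells (0.0138% to 2.99%; median 17077). None of the 80 mesothelial-like or 94 adipocyte-like cells had one, which allows exact binomial shares of up to 4.51% and 3.85%. These small classes cannot separate the Ly6c1 share of ASPC-like cells there from free RNA. Ly6a had one in 14.1% of ASPC-like cells there, in 4.89% of pericyte-like and in 1.25% of mesothelial-like cells (median 21578). In iWAT_ASPC, the neural-like cells (median 11406 UMIs) had shares of 16.1% for Ly6a and 1.34% for Ly6c1, against 60.6% and 10.7% in ASPC-like cells (median 25603). In iWAT_DFAT, 5.56% of the 18 neural-like cells (0.141% to 27.3%) had a Ly6a UMI, against 87.7% of ASPC-like cells. None of these neural-like cells had one of Ly6c1 (up to 18.5%), against 29.5% of ASPC-like cells.

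**Figure D4:**
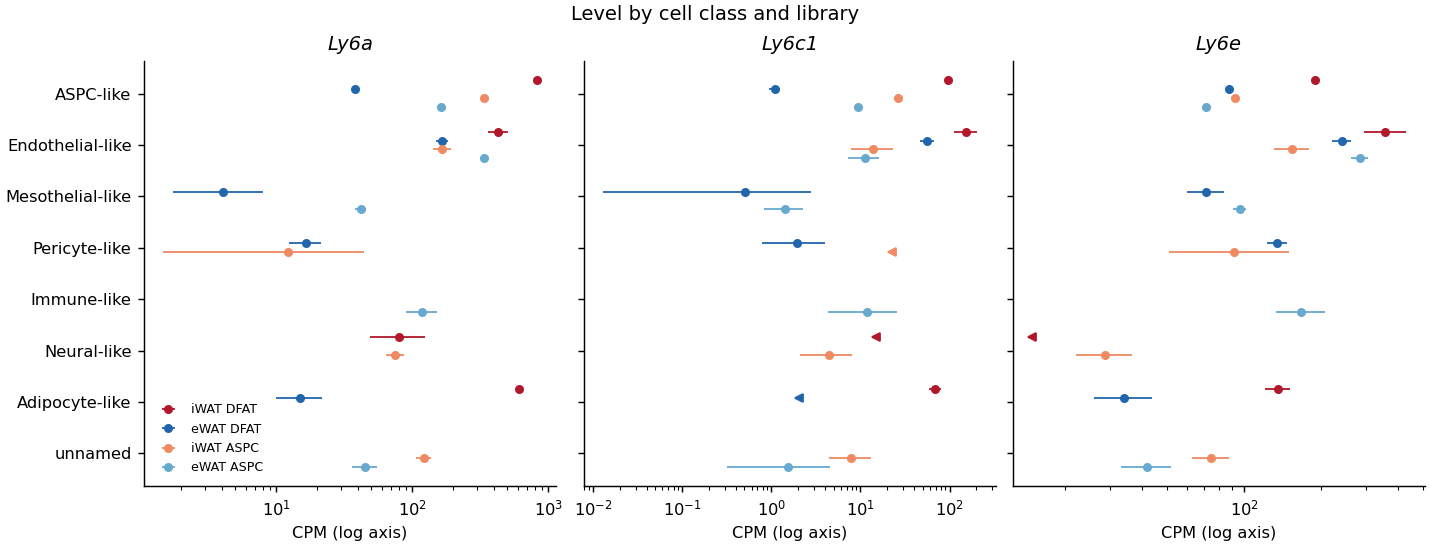
Level of Ly6a, Ly6c1 and Ly6e in CPM (log axes) by cell class and library, with 95% Poisson intervals; left-pointing triangles are upper limits for classes with 0 UMIs. Ly6a of ASPC-like cells spreads from 38.1 to 825 CPM between libraries, and endothelial-like cells have more Ly6e than ASPC-like cells of each library.

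ASPC-like clusters of one library also differed among themselves. Each library was clustered without the 4 genes, so their own counts did not enter the clustering, though genes that vary with them could. In iWAT_DFAT, Ly6a ran from 75.2 to 2072 CPM over 8 ASPC-like clusters. The highest was a cluster of 16 cells led by interferon-induced genes such as Rsad2 and Cxcl10, which also had 828 CPM of Ly6e. A cluster of 2562 cells led by genes including Wfdc17 and Pi16, a marker of early fat progenitors, had 1102 CPM of Ly6a and 154 CPM of Ly6c1. The highest Ly6c1 level, 308 CPM, was in 53 cells led by Slc6a12. The interferon-led group and the Pi16 group depended on the clustering. At Leiden resolution 1 a cluster led by Ifit3 and Cxcl10 held 813 cells. The cluster with Pi16 among its leading genes then held 356. With 4000 variable genes, a cluster led by Ifit3 and Ifit1 held 572 cells, and one led by genes including Wfdc17 and Pi16 held 2221.

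Clusters led by some of the same genes were high in Ly6a in other libraries, with an exception. In eWAT_DFAT, where most ASPC-like clusters had 26.6 to 43.3 CPM, 170 cells led by genes including Ccl19 and Pi16 had 257 CPM of Ly6a and 177 CPM of Ly6e. A further 81 cells, whose leading genes included Prss35 and Slc6a12, had 139 CPM of Ly6a and 14.0 CPM of Ly6c1. In eWAT_ASPC, 1103 cells led by Ifit3, Ifit1 and Isg15 had 333 CPM of Ly6a, against 20.9 to 199 CPM in the other ASPC-like clusters. By contrast, 535 cells of eWAT_DFAT whose leading genes began with Isg15 had 43.3 CPM. Isg15 was the only leading gene they shared with the Ifit3-led cluster of eWAT_ASPC, and their next ones were Acta1 and Lgals3. Their median was 14409 UMIs, against 27695 in that cluster, so the clusters are not closely comparable. The eWAT_ASPC grouping also depended on the clustering. At Leiden resolution 1 its Ifit3-led cluster held 47 cells. Ly6a and Ly6c1 were then among the leading genes of 790 other cells. Ifit3, Ifit1 and Isg15 were not among those leading genes, though such cells may still hold them. Zbp1 and C4b were, and both were also leading genes of the 1103 cells. With 4000 variable genes, Ly6a was among the leading genes of 1487 cells led by Ifit3 and Ifit1. In iWAT_ASPC, Ly6a ranged from 146 to 700 CPM over ASPC-like clusters, with the top in 578 cells led by Ltc4s and Lbp. Clusters were picked out after their values were seen.

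ASPC-like clusters with 5 or more of the 9 cycling markers had a lower Ly6a level than the other ASPC-like clusters of their library as 1 group. Ly6a was at 774 CPM in these and 833 CPM in the others in iWAT_DFAT, 310.4 and 349 CPM in iWAT_ASPC, 92.6 and 187 CPM in eWAT_ASPC, and 34.6 and 39.1 CPM in eWAT_DFAT. At Leiden resolution 1 the iWAT_ASPC values overlapped, 331 CPM (325 to 337) and 336 CPM (333 to 339). The shares of thinned cells with a Ly6a UMI were 88.7% and 87.6% in iWAT_DFAT and 60.6% in both groups of iWAT_ASPC, so they did not follow the level there. They went the same way as the level in eWAT_ASPC (24.7% in cycling and 40.2% in other ASPC-like clusters) and in eWAT_DFAT (12.9% and 14.5%). The cycling clusters differed among themselves where a library had more than 1. In iWAT_ASPC, 1321 cells led by genes including Top2a had 371 CPM and 788 cells led by histone genes 213 CPM. In eWAT_ASPC, 838 cells led by genes such as Plk1 had 146 CPM, and 631 cells with 5 of the markers, led by Chrdl1 and with none of the markers among their 10 leading genes, had 22.1 CPM. With 4000 variable genes the Chrdl1-led cluster held 0 of the markers, and the eWAT_ASPC values drew together to 142 CPM (137 to 146) in cycling and 167 CPM (165 to 169) in other ASPC-like cells. Histone-led clusters of the other libraries held only 2 to 4 of the markers and were counted with the others, though histone genes also rise in dividing cells. They had 639 CPM of Ly6a in iWAT_DFAT, 113 CPM in eWAT_ASPC and 26.6 CPM in eWAT_DFAT, so the groups do not cleanly part cycling from resting cells.

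Cells with one of the genes more often had another. Of thinned ASPC-like cells with a Ly6a UMI, 32.4% had one of Ly6c1 in iWAT_DFAT, against 8.91% of those without. The corresponding shares were 14.7% and 4.61% in iWAT_ASPC, 8.70% and 1.95% in eWAT_ASPC, and 1.78% and 0.293% in eWAT_DFAT. Ly6a and Ly6e were found together in 52.2% of iWAT_DFAT and 23.3% of iWAT_ASPC ASPC-like cells. Independent detection would give 50.7% and 21.99%, so most of this overlap follows from the levels. In eWAT_ASPC they were together in 12.9%, against 10.7% if independent, and in eWAT_DFAT in 6.32%, against 4.98%. All 3 detected genes were found together in 18.4% of iWAT_DFAT, 3.75% of iWAT_ASPC, 1.32% of eWAT_ASPC and 0.101% of eWAT_DFAT ASPC-like cells. Such shares rise with the levels, and the share of all 3 under independent detection was not computed. None of the 3 was found in 6.08% of iWAT_DFAT cells and in 56.9% of eWAT_DFAT cells, where Ly6e alone was the most common combination (28.8%).

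Genes that varied most like each member were sought over ASPC-like cells by Pearson r of log counts, averaged over the 4 libraries. They are a description: cells of a library share its free RNA, and depth moves all genes of a cell. For Ly6a the top 5 of 9337 genes were Ifitm3 (mean r 0.37), Ccn5 (0.35), Fth1 (0.35), Serping1 (0.35) and Vegfd (0.34). Ifitm3 is an interferon-induced membrane protein that hinders viral entry, and Serping1 an inhibitor of complement. Ly6c1 itself, too rare in eWAT_DFAT to be ranked, had a mean r of 0.42 with Ly6a, from 0.17 in eWAT_DFAT to 0.55 in iWAT_DFAT. For Ly6c1 the top 5 were Ly6a, Fth1 (0.20), Vegfd (0.19), Itm2b (0.19) and Ifitm3 (0.19). For Ly6e they were Ly6a (0.27), Bst2 (0.25), Lgals3bp (0.22), Ifitm3 (0.20) and H2-K1 (0.19), and Bst2 encodes tetherin, which holds virus particles at the cell surface. At equal depth the values fell, to 0.24 for Ly6a with Ly6c1 and to 0.12 for Ly6a with Ly6e, and the order changed. Of each top 5, 4 remained for Ly6a and 3 each for Ly6c1 and Ly6e. For Ly6e, Dcn and Col3a1 then ranked in place of Lgals3bp (rank 6) and H2-K1 (rank 17).

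The other genes of the Ly6/uPAR family were few. Of 39 listed genes in the files, 6 reached 5 CPM in each comparison, the 3 detected members and Cd59a, Lynx1 and Plaur. Cd59a, which protects cells from complement, was at 2.22 CPM in iWAT_DFAT, 15.9 in eWAT_DFAT, 37.9 in iWAT_ASPC and 34.0 in eWAT_ASPC. It was thus lower in DFAT cells than in ASPCs of both depots (log2 -4.09 in iWAT and -1.09 in eWAT). Plaur, the urokinase receptor, was higher in eWAT in both comparisons of depots (log2 -0.93 in DFAT cells and -0.75 in ASPCs). Lynx1, a modulator of nicotinic receptors, was at 4.22 to 10.7 CPM, and it was 2-fold or more lower in eWAT_DFAT than in eWAT_ASPC (log2 -1.34).

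Most interferon-stimulated genes were 2-fold or more higher in iWAT_DFAT, as Ly6a was, while between ASPCs those past 2-fold were all higher in eWAT, unlike Ly6a. Between the DFAT libraries, 20 of 34 genes were 2-fold or more higher in iWAT and none in eWAT (median log2 1.33, against 0.09 over all genes, of which 8.29% were called). The other 14 were within 2-fold. A ratio above 0 was found in 29 of the 34, and Bst2 lay furthest on the side of eWAT (log2 -0.63). In iWAT, 24 of 34 were higher in DFAT cells than in ASPCs (median 1.42, against 0.09 and 9.91% of all genes). Between ASPCs, 13 of 30 were higher in eWAT and none in iWAT (median -0.76, against 0.05 and 3.94% of all genes). The remaining 17 were within 2-fold, and B2m (log2 0.65) and H2-T23 (0.18) were on the side of iWAT. In eWAT, 9 of 30 were lower in DFAT cells than in ASPCs (median -0.51, against 0.07 and 6.67% of all genes). Isg15, a ubiquitin-like modifier, was at 35.7 CPM in iWAT_DFAT, 16.99 in eWAT_DFAT, 1.88 in iWAT_ASPC and 67.2 in eWAT_ASPC. Between ASPCs, Ly6a was thus higher in iWAT while Isg15 was higher in eWAT. Iigp1, an interferon-induced GTPase, was at 35.1 CPM in iWAT_DFAT and at 1.75 to 6.66 CPM elsewhere. Gbp3, Oas1a, Ifit3 and Oasl2, the other genes with the largest ratios, were each higher in iWAT_DFAT than in iWAT_ASPC (log2 1.23 to 3.47).

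Of 9 genes of interferon signalling, 5 were 2-fold or more higher in iWAT_DFAT than in eWAT_DFAT (median log2 1.13, against 8.29% of all genes) and 6 than in iWAT_ASPC (median 1.46, against 9.91%). The other 4 were within 2-fold between the DFAT libraries, and Ifngr2, a chain of the interferon gamma receptor, was slightly lower in iWAT_DFAT (log2 -0.23). The kinase gene Jak2 was at 149 CPM in iWAT_DFAT, 68.0 in eWAT_DFAT, 31.7 in iWAT_ASPC and 39.0 in eWAT_ASPC. The feedback inhibitor Socs3 was at 40.05 CPM in iWAT_DFAT and at 8.59 to 18.8 CPM elsewhere, and its relative Socs1 at 16.7 and 3.80 to 5.94 CPM. The type I interferon receptor genes Ifnar1 and Ifnar2 and the kinase gene Jak1 were higher in iWAT_DFAT than in iWAT_ASPC by log2 1.46, 1.51 and 1.37. Between ASPCs, 1 of 8 genes was 2-fold or more higher in eWAT and none in iWAT, against 3.94% and 2.94% of all genes. In eWAT, 1 of 9 was lower in DFAT cells than in ASPCs, against 6.67%. A single gene of so few is near the background.

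Of the genes that build and attach the GPI anchor, none of the 17 to 19 compared reached 2-fold in any of the 4 comparisons, with medians of -0.08 to 0.12. Over all genes, 2.94% to 9.91% passed in 1 direction, so few calls would be found among so short a list at the background share. The largest values were those of Pgap1 (log2 -0.94, eWAT_DFAT over eWAT_ASPC) and Pigf (-0.91, iWAT_DFAT over eWAT_DFAT).

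Other surface genes of fat progenitors went in both directions. Between the DFAT libraries, 5 of 14 were 2-fold or more higher in iWAT and 1 in eWAT, against 8.29% and 3.95% of all genes. Between the iWAT libraries, 6 of 15 were higher in DFAT cells and 6 in ASPCs (9.91% and 5.18% of all genes). Between ASPCs, 3 of 14 were higher in iWAT and 2 in eWAT (2.94% and 3.94%), and in eWAT 2 of 13 were higher in DFAT cells and 3 in ASPCs (6.44% and 6.67%). Pi16 was at 24.6 CPM in iWAT_DFAT and 0.587 to 1.25 CPM elsewhere. Dpp4, another early progenitor gene, was at 15.5 CPM in iWAT_DFAT, 9.03 in eWAT_ASPC, 3.01 in eWAT_DFAT and 1.51 in iWAT_ASPC. Thy1 was higher in ASPCs of both depots, with 248 CPM in iWAT_ASPC and 83.9 CPM in iWAT_DFAT, and 131 and 20.9 CPM in eWAT. Thy1 was thus lower in iWAT_DFAT than in iWAT_ASPC, whereas Ly6a was higher there. Wnt2, a secreted signal of the list, was highest in eWAT_DFAT, with 8.31 CPM against 1.21 in eWAT_ASPC, 3.02 in iWAT_ASPC and 4.53 in iWAT_DFAT. Dlk1, a preadipocyte gene, was at 15.5 CPM in iWAT_ASPC and at 1.78 to 4.42 CPM elsewhere. Cd24a, a surface marker of fat progenitors, was at 10.4 CPM in iWAT_ASPC and at 2.45 to 2.79 CPM elsewhere.

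**Figure D5:**
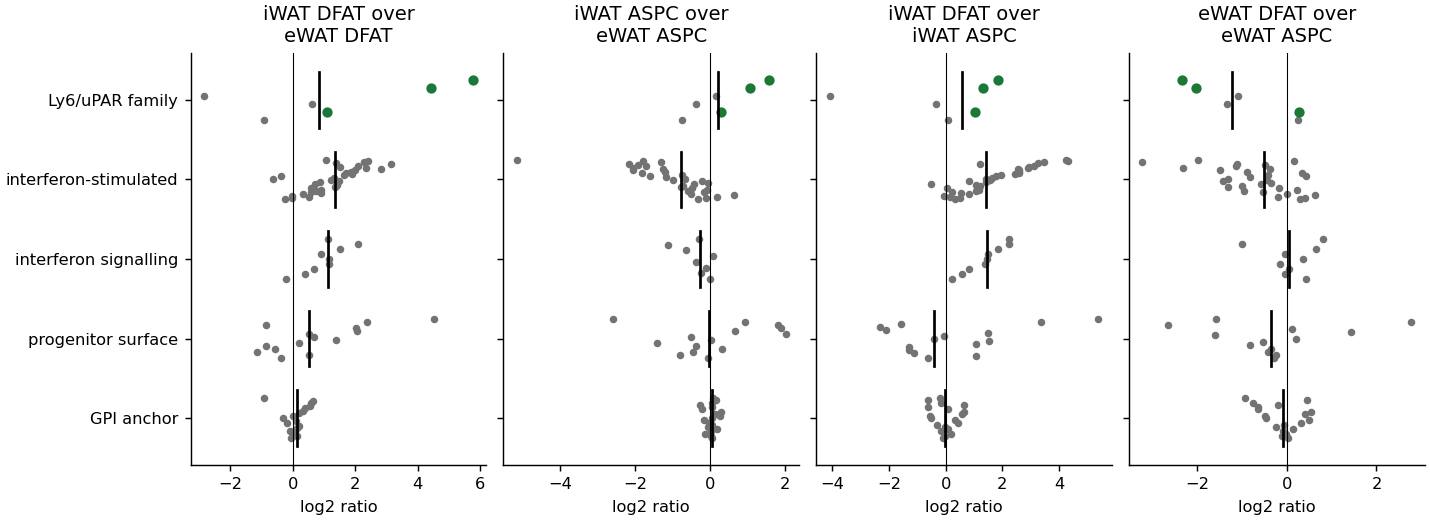
Log2 ratio (horizontal axes) of each gene at 5 CPM or more in 5 gene lists, 1 panel per comparison; green points are Ly6a, Ly6c1 and Ly6e, grey points the other genes and black lines list medians. Most interferon-stimulated genes lie to the right between the DFAT libraries (median 1.33) and to the left between ASPCs (median -0.76). All GPI anchor genes stay within 2-fold.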

How the data were processed

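Droplet libraries of cultured DFAT cells and ASPCs from iWAT and eWAT were analysed, 1 per condition. The authors made the deposited UMI counts per gene and barcode with Cell Ranger (7.1.0 in 3 file headers, 4 in that of iWAT_ASPC, 7.0.0 in the submitters' processing notes) on mm10, introns included per the methods. The matrices precede any call of cells, and hold 1599387 to 1930796 barcodes each. UMIs of the cells were summed per gene and library (183664704 to 199357348 in total) and given as CPM with exact 95% Poisson intervals, and ratios with exact conditional binomial intervals. Intervals cover counting error only. Called means 2-fold or more among genes at 5 CPM or more in the higher library. Shares were taken after thinning each cell to 5000 UMIs, and no cell was shallower. Each library was clustered on its own without the 4 genes (scanpy 1.11.5, 2000 variable genes, 30 components, 20 neighbours, Leiden resolution 0.5), and clusters were named from fixed markers. Likeness over cells was ranked among genes with a UMI in 10% or more of the ASPC-like cells of every library. Scrublet's own threshold marked 0 to 3 cells per library and thus did not work, so doublets were kept, and 334 to 466 top-scoring cells per library were removed only as an alternative. CellBender and DoubletFinder were not run. Intervals, ratios and thinning were tested on simulated data. The simulated counts followed the sampling models that the intervals assume, without variation between cells, so the coverage found says nothing of such variation.

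From each gene list, the genes named were up to 6 with the largest ratios among those at 5 CPM or more. B2m, H2-T23, Bst2 and Ifngr2 fall outside this and were named, as genes that went the other way, after their values were seen. A cluster was called cycling on the same share of markers as the named classes. The 4 members and the lists were chosen with earlier results of these data known. No promoter window was available here for Ly6a or Ly6e, so the motif search covers Ly6c1 and Ly6c2 only. Protein sequences were not used here.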

Additional observations from a re-analysis of the deposited data

Results flagged for a closer look

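Ly6a and Ly6c1 went in opposite directions in the 2 depots when DFAT cells were compared with ASPCs. The log2 ratio of Ly6a was 1.32 in iWAT and -2.02 in eWAT. That of Ly6c1 was 1.86 in iWAT and -2.33 in eWAT. With 1 library per condition, the difference between the depots was not tested.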

How the results depend on the processing

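No paired analysis was possible because each condition had 1 library, and for the same reason no library could be left out. All 12 ratios of Ly6a, Ly6c1 and Ly6e kept their direction under the 7 alternatives tried, and 2 crossed the 2-fold line. Centring shifted the ratios by log2 -0.09 to -0.05 and subtracting free RNA by -0.06 to 0.04. These shifts were smaller in size than every ratio, so they could not change a direction. The ratios are given as log2 in the order of the comparisons in the report. A minimum of 500 UMIs or a limit of 20% mitochondrial UMIs left all 12 within their counting intervals. Centring on the median gene gave 4.32, 1.02, 1.23 and -2.09 for Ly6a, 0.98, 0.23, 0.96 and 0.19 for Ly6e, and 1.77 for Ly6c1 between the iWAT libraries; the Ly6e values between the DFAT libraries and between the iWAT libraries are those under 2-fold. ASPC-like cells alone gave 1.04, 1.30 and -2.10 for Ly6a from the second comparison on, 6.44 and -3.09 for Ly6c1 in the first and last, and 1.11, 0.37 and 0.31 for Ly6e in the first, second and last. A mean over cells gave 4.25, 1.36 and -1.84 for Ly6a, 5.18, 1.92 and -1.70 for Ly6c1 (each in the order given, without the comparison of ASPCs), and 0.22 and 1.10 for Ly6e between ASPCs and between the iWAT libraries. Removing doublets gave 4.45 and -2.06 for Ly6a in the first and last. Subtracting free RNA gave 1.03 for Ly6a and 0.23 for Ly6e between ASPCs, and 1.09 for Ly6e between the iWAT libraries. For other shifts, the cause was not tested. Shares of cells moved beyond their intervals with every change of depth or threshold, as their construction implies.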

Other observations

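Several Ly6-region genes under 5 CPM are given as values, chosen after their counts were seen. Ly6f had 6 UMIs in iWAT_DFAT, 76 in eWAT_DFAT, 226 in iWAT_ASPC and 123 in eWAT_ASPC. Ly6i, which lies between Ly6e and Ly6a, had 58, 6, 38 and 6 UMIs in the same order. Gpihbp1, which anchors lipoprotein lipase on capillary endothelium, had 224, 501, 26 and 141 UMIs.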
